A study of Mus musculus with 20 samples.

Results

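The genes described here are the Hnrnp and Srsf genes of the mouse, with Tra2a and Tra2b, as measured through the read counts of their 3′ UTRs. They were chosen by name: every row of the count table that position and row order together placed on a gene whose symbol starts with Hnrnp or Srsf, plus both Tra2 genes. This gave 33 rows of 20586, with 20 Hnrnp genes, 11 Srsf genes and 2 Tra2 genes, each as a single UTR. Before the check on row order, 3 rows fell on Hnrnpf and 2 on Hnrnpd, of which 1 each was kept. For Hnrnpab, Hnrnpu and Srsf9, 2 rows lay inside the gene and 1 was named. Hnrnpa1 and Hnrnpa3 have related copies elsewhere in the genome, and how reads matching several places were counted is not given in the sources used here, so the values of both are uncertain.

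CPEB4 binds cytoplasmic polyadenylation elements in the 3′ UTRs of mRNAs. It was immunoprecipitated with a homemade antibody from mouse CD8 T cells, and the RNA that came down was sequenced beside input RNA (RIP-seq). The 4 groups were the input and the immunoprecipitate (IP) of wild-type (WT) cells and of Cpeb4 knockout (KO) cells, all from C57BL/6 mice, and the comparison asks which mRNAs CPEB4 binds. The cells of every group came from spleen and lymph nodes and were activated over 48 h by antibodies to CD3 and CD28, at 1 μg/ml each, in the presence of IL-2 at 20 ng/ml. Input RNA was selected for poly(A) and then given 12 cycles of PCR, while IP RNA was given 7 cycles without that selection, so IP and input differ in more than the antibody. The counts of 9 of the 20 sequencing runs stood beside the right row names. These 9 runs carried the names of 6 libraries: both inputs and both IPs of the experiment named D1, and both inputs of the one named RIP8. Nothing in the labels says that the libraries came from separate animals, so the p-values below reflect the spread among these samples alone, and that spread may be technical.

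Heterogeneous nuclear ribonucleoproteins (hnRNPs) coat nascent transcripts in the nucleus and often repress the use of nearby splice sites, while SR proteins, the products of the Srsf genes, bind exonic enhancers through RNA recognition motifs and recruit the spliceosome through domains rich in arginine and serine. Tra2 proteins are related to SR proteins and also activate exons. In T cells, activation changes the splicing of many transcripts, and hnRNP L and its relative hnRNP LL are known for controlling the exons of Ptprc, the gene of the phosphatase CD45. Many SR and hnRNP genes limit their own expression by splicing in exons that expose the transcript to decay.

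The 9 runs fell into a shallow and a deep set that cut across the labels. Total counts were 364113 to 486758 in 5 runs and 2605101 to 4182830 in the other 4. A single UTR in Lars2 held 34.8 to 50.1% of the counts of the shallow runs and 1.16 to 5.4% of the deep ones, so it was left out and levels are given as counts scaled to a remaining total of 1000000 (CPM). One count then stood for 3.15 to 5.20 CPM in a shallow run and for 0.245 to 0.406 CPM in a deep one. Cpeb4 itself, the targeted gene, did not separate KO from WT over the 9 runs. Among the shallow runs it had 110 CPM in KO input D1 against 125 and 123 CPM in WT input D1 and WT IP D1, and 126 CPM in KO input RIP8 against 195 CPM in WT input RIP8 batch 1. Among the deep runs it had 16.2 and 47.1 CPM in KO IP against 12.0 CPM in WT IP and 34.3 CPM in WT input RIP8 batch 2. The deleted part of Cpeb4 is not given in the sources used here, so its UTR may lie outside the deletion, and each run is called below by the name it was labelled with. The 7 CD8 T cell markers summed to 2368 to 2958 CPM in the shallow runs and 4252 to 9552 CPM in the deep ones, with none of the 7 at 0 throughout. The 5 B cell markers summed to at most 48.7 CPM, the 3 NK cell markers to at most 10.0 CPM, the 5 myeloid markers to at most 102 CPM, the 2 named CD4 T cell markers to at most 167 CPM and the 4 stromal markers to at most 76.6 CPM. The part of the marker differences and of the Lars2 share in the results below was not tested. In bulk RNA, fewer cells of a type and less RNA per cell cannot be told apart.

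The labels did not predict which runs resembled each other in these 33 genes. Over the members with enough counts, the chi-square per degree of freedom, which is near 1 for sampling noise alone, was 0.787 between the runs labelled WT input D1 and WT IP D1 batch 2, 1.02 between WT input D1 and KO input D1, and 0.711 between WT IP D1 batch 2 and KO input D1. These 3 runs, of 3 different groups, thus differed by less than or about the sampling noise in the splicing genes. Over all rows with at least 20 summed counts, the same pairs gave 1.05, 1.12 and 1.09. The runs labelled WT input RIP8 batch 1 and KO input RIP8 batch 2 gave 1.68 over the members, and KO IP D1 batch 3 and WT input RIP8 batch 2 gave 4.05. Runs that share a library name had higher values, at 98.5 for the WT IP D1 pair and 64.2 for the WT input RIP8 pair. The KO IP D1 pair gave 51.0. Over all rows these pairs gave 58.7, 31.7 and 35.0. The measure grows with depth, so pairs with a deep run are not on the scale of pairs of shallow runs. Some deep runs of different labels gave more, as WT IP D1 batch 3 and WT input RIP8 batch 2 at 179. Spearman's rho over the members was 0.615, 0.646 and 0.914 for the pairs that share a library name, against 0.971 to 0.974 among the shallow D1 runs. Results are therefore given by run first, and the comparisons between labelled groups follow.

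Promoter sequences were available for 31 of the 33 genes, as the first listed 300-base window of each in RefSeq (GRCm38.p6), from 250 bases before to 50 bases after the annotated start. That start need not be the outermost of the gene: the stretch shown for Srsf1 begins at 88047279, inside a gene that begins at 88046499. The sequences are shown because most of these genes had a feature there that the choice by name did not use. The motif GGGCGG, a GC box, was present on either strand in 25 of the 31 promoters (80.6%), against 35.9% of 27025 promoters. It stood in 13 of 18 Hnrnp promoters, 10 of 11 Srsf promoters and both Tra2 promoters. The motif CCAAT was present in 17 of the 31 (54.8%), against 37.9% of all promoters, in 12 of 18 Hnrnp and 4 of 11 Srsf promoters. The motif TATAAA was present in 4 of the 31 (12.9%), against 14.2% of all. Neighbouring matches of different motifs can share end bases, each was counted on its own, and a match is a description of the letters only. Windows of 30 bases follow for genes whose counts are described below, read 5′ to 3′ on the gene's own strand, with the motif or its reverse complement in capitals. Those of Hnrnpa2b1 (chr6:51469928-51469957, minus strand), Hnrnpk (chr13:58402154-58402183, minus strand) and Srsf2 (chr11:116853159-116853188, minus strand) hold CCAAT, and those of Srsf1 (chr11:88047279-88047308, plus strand), Srsf6 (chr2:162931473-162931502, plus strand) and Hnrnpr (chr4:136310744-136310773, plus strand) hold GGGCGG.
Hnrnpa2b1: gcccttcccgccATTGGcggcggttagggc
Hnrnpk: aagcctgggcagCCAATggggcgcgacgct
Srsf2: cggccgaatgggCCAATcaggagattcatt
Srsf1: cgtcatctatctCCGCCCcgcggcgccttt
Srsf6: ccgcgccgcgccCCGCCCccgggcacttat
Hnrnpr: gtgtgcatgcccCCGCCCcggaggcgccgc

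Among the Hnrnp genes, Hnrnpa2b1 and Hnrnph1 were high in the shallow runs while Hnrnpk, Hnrnpab, Hnrnpc and Hnrnpa0 were high in the deep runs. Levels are listed in a fixed order: the shallow D1 runs (WT input, KO input, WT IP batch 2), the shallow RIP8 runs (WT input batch 1, KO input batch 2), and the deep runs (WT IP D1 batch 3, KO IP D1 batch 2, KO IP D1 batch 3, WT input RIP8 batch 2). Hnrnpa2b1, an A/B-type hnRNP that binds exonic and intronic silencers and also sorts small RNAs, starts its UTR at position 51460434 of chromosome 6 (mm10). It had 3279, 3279 and 3395 CPM in the shallow D1 runs, 3144 and 3072 CPM in the shallow RIP8 runs, and 666, 1129, 1873 and 2059 CPM in the deep runs. The lowest shallow run stood 1.49-fold above the highest deep run. Hnrnph1, which binds runs of guanines, had 588, 590 and 563 CPM, then 725 and 722 CPM, against 247, 393, 469 and 511 CPM in the deep runs, a gap of 1.10-fold. Both genes were lowest in the deep run labelled WT IP D1 batch 3.

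Hnrnpc and Hnrnpk, both binders of pyrimidine-rich RNA, were high in the deep runs. Hnrnpc, which packages nascent transcripts and binds uridine tracts, had 167, 165 and 202 CPM in the shallow D1 runs, 145 and 137 CPM in the shallow RIP8 runs, and 505, 512, 419 and 511 CPM in the deep runs. Its lowest deep run stood 2.07-fold above its highest shallow run. Hnrnpk, a KH-domain protein that binds poly(C), had 276, 285, 232, 356 and 270 CPM in the shallow runs against 554, 546, 532 and 599 CPM in the deep ones, a gap of 1.49-fold. Within the deep set both genes varied less than Hnrnpa2b1. Hnrnpab, an hnRNP A/B relative, had 172, 295, 266, 233 and 221 CPM in the shallow runs and 321, 516, 648 and 744 CPM in the deep runs. Hnrnpa0, known as a binder of AU-rich elements, had 161, 190, 192, 227 and 112 CPM in the shallow runs and 244, 524, 570 and 606 CPM in the deep runs. For both, the lowest deep run, WT IP D1 batch 3, lay just above the highest shallow run, with gaps of 1.09-fold and 1.08-fold.

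Hnrnpu and Hnrnpl had overlapping levels in the 2 sets. Hnrnpu, a chromatin-associated RNA binder also called SAF-A, had 859, 685, 814, 788 and 837 CPM in the shallow runs and 724, 631, 547 and 554 CPM in the deep ones. Hnrnpl, which binds CA repeats, had 135, 115 and 158 CPM in the shallow D1 runs, 302 and 357 CPM in the shallow RIP8 runs and 136, 254, 547 and 706 CPM in the deep runs. Hnrnpl was thus low in the 3 shallow D1 runs and in the deep WT IP D1 run, and higher in the other 5 runs. The other 12 Hnrnp genes ran from 471 counts over the 9 runs (Hnrnpa1) to 5726 (Hnrnpm), apart from Hnrnpll with 355. Of these, Hnrnpr, a paralogue of the RNA transport protein SYNCRIP, and Hnrnpa3, an A/B-type hnRNP, were picked for mention after their values were seen. Hnrnpr had 744, 710 and 696 CPM in the shallow D1 runs, 482 and 501 CPM in the shallow RIP8 runs and 64.4, 99.8, 144 and 147 CPM in the deep runs, a gap of 3.28-fold, the widest of any member. Hnrnpa3 had 119 to 183 CPM in the shallow runs and 11.5 to 59.2 CPM in the deep ones, a gap of 2.01-fold.

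Among the Srsf genes, Srsf1 and Srsf6 were well above their deep levels in every shallow run, Srsf2 was somewhat higher there, and Srsf3, Srsf7 and Srsf11 overlapped. Srsf1, the founding SR protein (UTR start 88049607 on chromosome 11, mm10), had 2097, 2179 and 2315 CPM in the shallow D1 runs, 2552 and 2732 CPM in the shallow RIP8 runs, and 185, 367, 618 and 695 CPM in the deep runs. The lowest shallow run stood 3.02-fold above the highest deep run. Srsf6, an SR protein with 2 RNA recognition motifs, had 1062, 1035 and 1022 CPM, then 570 and 592 CPM, against 210, 265, 243 and 288 CPM in the deep runs. Its shallow D1 and shallow RIP8 runs were also apart, and the gap to the deep runs was 1.98-fold. Srsf2, known as the nuclear speckle marker SC35, had 947, 985, 938, 772 and 750 CPM in the shallow runs and 629, 555, 510 and 598 CPM in the deep ones, a gap of 1.19-fold.

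Srsf3, a small SR protein that also takes part in mRNA export, had the narrowest span of the 16 genes listed for having the most counts in their families. It had 505, 400, 464, 460 and 522 CPM in the shallow runs and 474, 416, 424 and 479 CPM in the deep ones. Srsf7, an SR protein with a zinc knuckle, had 239, 235, 192, 214 and 193 CPM against 125, 153, 269 and 301 CPM. Srsf11, which carries an arginine and serine-rich domain, had 213, 265, 266, 388 and 301 CPM against 177, 270, 425 and 409 CPM, and its UTR was placed on the gene only as lying within 1000 bases outside it. In both Srsf7 and Srsf11 the deep runs spanned the shallow ones, with WT IP D1 batch 3 lowest. Tra2a, an activator of exons with purine-rich enhancers, had 354, 405, 419, 507 and 452 CPM against 84.2, 148, 275 and 336 CPM, without overlap and with a gap of 1.05-fold. Tra2b, its paralogue, had 172, 245, 197, 293 and 287 CPM against 104, 130, 170 and 199 CPM, with overlapping ranges, and was likewise placed from within 1000 bases. Of the other Srsf genes, Srsf10, picked after its values were seen and known as a splicing repressor when dephosphorylated, had 190 to 312 CPM in the shallow runs and 39.1 to 78.3 CPM in the deep ones, a gap of 2.43-fold. Srsf4, Srsf5 and Srsf9 overlapped, and Srsf12 had only 82 counts over the 9 runs.

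**Figure D1:**
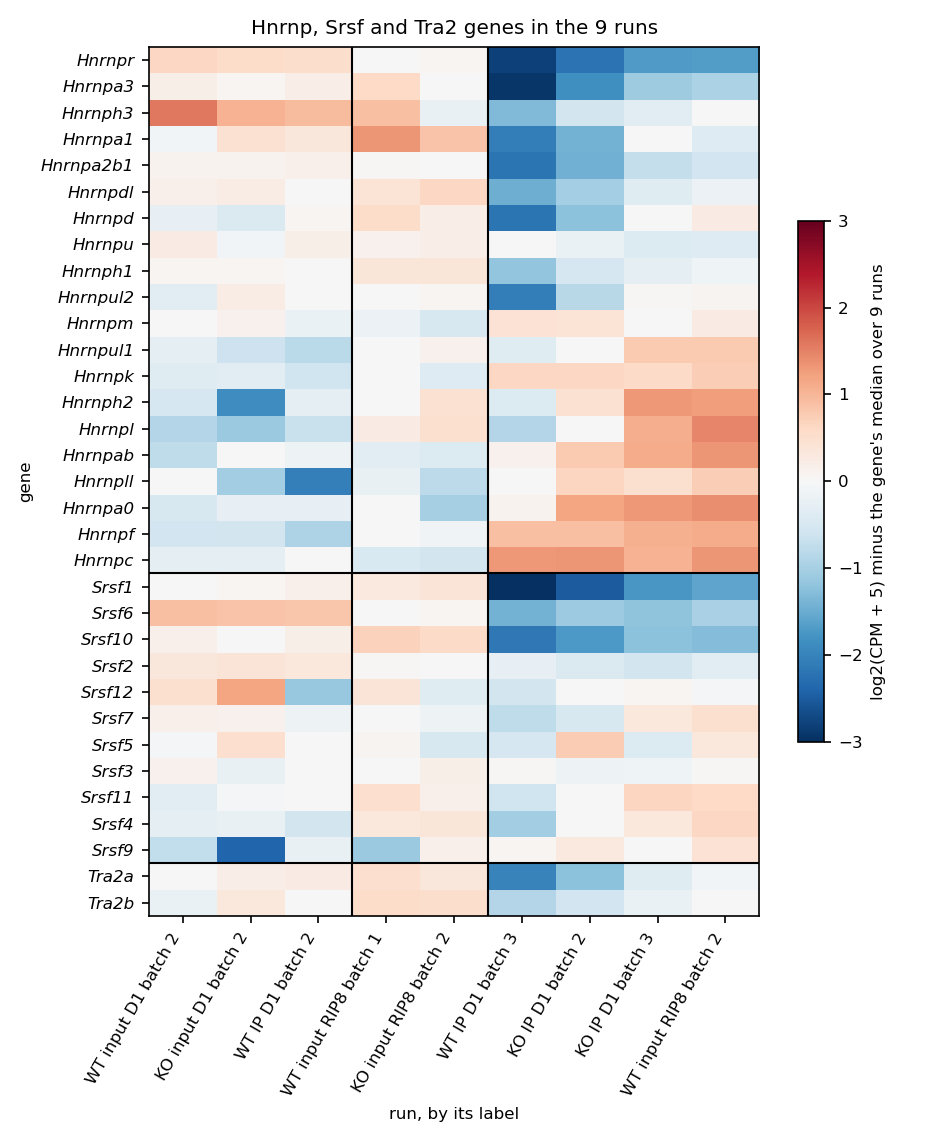
Level of each of the 33 genes in the 9 runs, as log2 of CPM plus 5 minus the gene's median over the runs (colour scale, red above and blue below the median), with runs named by their labels on the horizontal axis and genes grouped by family on the vertical axis. Vertical lines part the shallow D1, shallow RIP8 and deep runs. Hnrnpr, Srsf1 and Srsf10 are blue in the 4 deep runs, and Hnrnpc, Hnrnpf and Hnrnpk are red there.

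Taken by non-overlapping ranges, the members split in both directions. Of 8284 rows with at least 200 counts over the 9 runs, 21.3% were higher in every shallow run than in any deep run and 24.3% were lower. Of the 32 members over that minimum, 10 were higher and 6 lower, with 16 overlapping, which is somewhat above the background share for higher and below it for lower. Srsf12 was under the minimum. The higher genes were Hnrnpa2b1, Hnrnph1, Hnrnpdl, Hnrnpr, Hnrnpa3, Srsf1, Srsf2, Srsf6, Srsf10 and Tra2a. The lower genes were Hnrnpk, Hnrnpab, Hnrnpc, Hnrnpa0, Hnrnpf and Hnrnpll, all of the Hnrnp family. Hnrnpll rests on few counts, with 0 in WT IP D1 batch 2, where a count of 0 allows up to 3. With the Lars2 row kept in the run totals, which lowers every shallow level, 5 members stayed higher (Hnrnpr, Hnrnpa3, Srsf1, Srsf6 and Srsf10, against 9.15% of all rows) and 10 were lower (against 41.6%). No member passed from higher to lower. The 3 shallow D1 runs are nearly one profile, and with 1 run kept of each set of like shallow runs the counts were 12 higher (26.4% of all rows) and 7 lower (30.2%).

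The balance between the families differed between the sets as well. Of the summed Hnrnp and Srsf counts, the Hnrnp genes took 59.3% in WT input D1 (57.4 to 61.1%, the 95% Wilson interval), 58.9% in KO input D1 (57.0 to 60.7%) and 58.9% in WT IP D1 batch 2 (57.1 to 60.7%). They took 60.3% in WT input RIP8 batch 1 (58.9 to 61.7%) and 58.8% in KO input RIP8 batch 2 (57.2 to 60.3%). In the deep runs they took 69.2% in WT IP D1 batch 3 (68.6 to 69.8%), 70.9% in KO IP D1 batch 2 (70.4 to 71.3%), 72.8% in KO IP D1 batch 3 (72.2 to 73.3%) and 72.3% in WT input RIP8 batch 2 (71.9 to 72.7%). The 5 shallow shares thus lay within 58.8 to 60.3% across 3 groups, and every deep share lay above them. These intervals cover counting error only, since PCR reads without molecular identifiers are not independent molecules. A share within a run does not depend on the Lars2 row or on library scaling.

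Single genes carried a large part of both families in the shallow runs. Hnrnpa2b1 gave 37.0 to 41.9% of all Hnrnp counts in the shallow runs, against 14.6, 18.8, 24.4 and 24.1% in the deep ones. Srsf1 gave 37.9 to 48.0% of all Srsf counts in the shallow runs, against 9.10, 14.8, 21.5 and 21.2%. In contrast, Srsf2 gave 13.2 to 17.6% of Srsf counts in the shallow runs and 31.0, 22.5, 17.7 and 18.3% in the deep ones. Without Hnrnpa2b1 and Srsf1, the Hnrnp share was 58.1, 58.1 and 58.5% in the shallow D1 runs and 63.8 and 63.0% in the shallow RIP8 runs. It was 67.9, 69.9, 72.0 and 71.5% in the deep runs, so the order of the sets held with both genes left out together. These 2 genes move the share in opposite directions, and the share without Srsf1 alone was not computed, so the order may still rest on Srsf1. The Srsf genes summed to 5533 to 5696 CPM in the shallow runs and 2032 to 3273 CPM in the deep ones. The Hnrnp genes summed to 8002 to 8488 CPM and 4566 to 8540 CPM. The Hnrnp sums overlapped and the Srsf sums did not. From the shallow to the deep run of WT IP D1, both fell, from 8103 to 4566 CPM for Hnrnp and from 5656 to 2032 CPM for Srsf. In WT input RIP8 the Hnrnp sum went from 8488 to 8540 CPM and the Srsf sum from 5589 to 3273 CPM. Much of that Srsf fall was Srsf1, from 2552 to 695 CPM. Altogether the 33 genes took 1.41 to 1.49% of the counts outside Lars2 in the shallow runs and 0.679 to 1.23% in the deep ones.

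**Figure D2:**
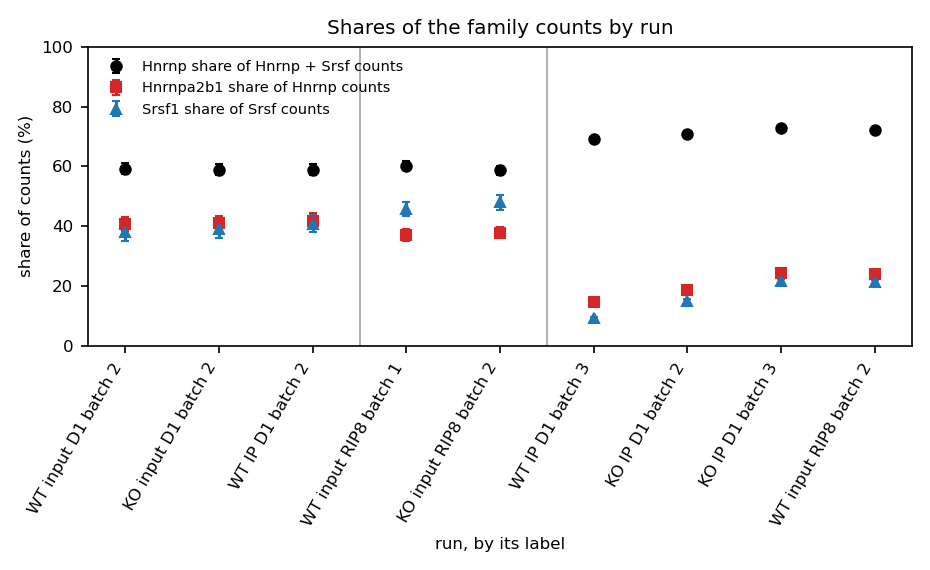
Share of counts in percent (vertical axis, from 0 to 100) in each of the 9 runs: Hnrnp genes among Hnrnp and Srsf counts (circles), Hnrnpa2b1 among Hnrnp counts (squares) and Srsf1 among Srsf counts (triangles), with 95% Wilson intervals as bars. The Hnrnp share is 58.8 to 60.3% in the 5 shallow runs left of the second line and 69.2 to 72.8% in the 4 deep runs.

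Between the labelled genotypes, the Hnrnp share could not be separated with 2 input libraries each. With the runs of a library summed, it was 59.3% in WT input D1, 71.3% in WT input RIP8, 58.9% in KO input D1 and 58.8% in KO input RIP8. The mean was 65.3% ± 8.50 (SD, n = 2) for WT input and 58.8% ± 0.0772 (SD, n = 2) for KO input, a difference of −6.44 percentage points. The 2-sided exact permutation test gave p = 0.333, the smallest that 2 libraries against 2 allow. The difference rested on WT input RIP8, whose deep run holds most of its counts: without that library it was −0.429 points, and without WT input D1 it was −12.4 points. The IP libraries of D1 had shares of 68.2% for WT and 71.7% for KO, with 1 library each and no test.

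Runs that share a library name show the same genes moving with no change of label. In the library labelled WT IP D1, the shallow batch 2 run was set against the deep batch 3 run, as log2 ratios of CPM with exact 95% intervals for counting error. Over 9439 rows with at least 20 counts the median was 0.21, and 34.8% of rows were more than 2-fold higher and 24.9% more than 2-fold lower in the shallow run, where a run at 0 was taken at 3 counts for this measure. Of 32 members, 13 were more than 2-fold higher and 3 more than 2-fold lower, with a median of 0.58. Hnrnpll, with 0 against 63 counts, was not among them. The Hnrnp genes had 9 higher and 3 lower with a median of 0.19, and the 10 Srsf genes 3 higher and 0 lower with a median of 0.58. Srsf1 had the highest ratio, 3.65 (3.48 to 3.81), followed by Hnrnpa3 with 3.58 (2.85 to 4.29) and Hnrnpr with 3.43 (3.13 to 3.74). Hnrnpa2b1 had 2.35 (2.23 to 2.47). At the other end were Hnrnpf with −1.89 (−2.77 to −1.14), Hnrnpc with −1.32 (−1.80 to −0.88) and Hnrnpk with −1.26 (−1.71 to −0.84). Srsf3 stood at −0.03 (−0.34 to 0.27) and Hnrnpu at 0.17 (−0.07 to 0.40), so their intervals include no difference.

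The library labelled WT input RIP8 also had a shallow run, batch 1, and a deep run, batch 2. Here the median of 9971 rows was −0.13 (−0.08 with runs at 0 taken at 3 counts), with 18.7% more than 2-fold higher and 24.9% more than 2-fold lower in the shallow run. Of the 33 members, 5 were higher and 8 lower by that measure, with a median of −0.06. The 5 higher genes were Srsf10 with 2.06 (1.72 to 2.39), Srsf1 with 1.88 (1.76 to 1.99), Hnrnpa1 with 1.84 (1.31 to 2.34), Hnrnpr with 1.71 (1.45 to 1.97) and Hnrnpa3 with 1.63 (1.19 to 2.04). All 5 were also more than 2-fold higher in the WT IP D1 pair. The lower genes included Hnrnpc with −1.82 (−2.27 to −1.40), Hnrnpab with −1.67 (−2.03 to −1.34), Hnrnpa0 with −1.42 (−1.78 to −1.08) and Hnrnpl with −1.22 (−1.53 to −0.93). Srsf9 was also among them, at −1.80 (−3.26 to −0.66) on 6 counts in the shallow run. Of the lower genes, only Hnrnpc and Hnrnpf were also more than 2-fold lower in the WT IP D1 pair. In that pair Hnrnpab had −0.267 (−0.688 to 0.126), Hnrnpa0 −0.344 (−0.845 to 0.117), Hnrnpl 0.215 (−0.348 to 0.73) and Srsf9 −0.315 (−1.55 to 0.692). Their intervals include no difference. Hnrnpa2b1 reached 0.61 (0.52 to 0.71), and Srsf3 stood at −0.06 (−0.31 to 0.18). These 2 pairs of runs share no run. Across the 31 members with a ratio in both, Pearson's r was 0.862 and Spearman's rho 0.878, with the same sign in 24. Across 8431 rows of all genes they were 0.764 and 0.738, with the same sign in 6308. Those rows reach down to 20 summed counts in a pair, and most members hold far more. The values of the members and of all rows therefore differ in counting error and are not on equal terms. Each pair sets a run rich in Lars2 against a run poor in it, at different depths, and genes are not independent replicates.

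**Figure D3:**
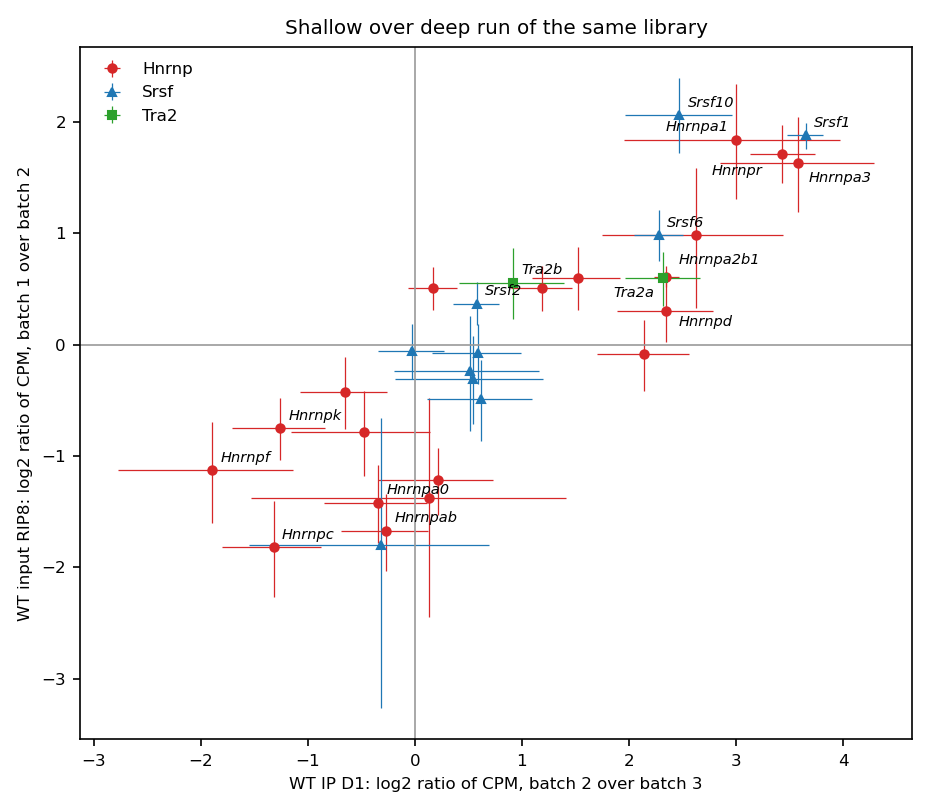
Log2 ratio of CPM of the shallow over the deep run in the library labelled WT IP D1 (horizontal axis) and in the library labelled WT input RIP8 (vertical axis) for 31 members, with exact 95% intervals as bars and selected genes named. Srsf1, Srsf10, Hnrnpr and Hnrnpa3 lie at the upper right, and Hnrnpc, Hnrnpf and Hnrnpk at the lower left.

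The third library with repeat runs, labelled KO IP D1, had deep runs only. Its median over 10346 rows was −0.04, with 9.31% of rows more than 2-fold higher and 10.6% more than 2-fold lower in batch 2 than in batch 3. Of the 33 members, 1 was more than 2-fold higher and 3 more than 2-fold lower, with a median of −0.33. The higher one was Srsf5, an SR protein, at 1.23 (0.997 to 1.47). The lower ones were Hnrnpa1 at −1.67, Hnrnpd, known as the AU-rich element binder AUF1, at −1.26, and Hnrnpl at −1.11. These members were named because so few passed 2-fold, after their values were seen.

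Other splicing genes were taken from a list of 71, of which 65 had a named row. The core spliceosome factors on it were components of the U1, U2 and tri-snRNP particles, and branch point factors. Of these, 0 of 23 were higher and 15 lower in every shallow run, against the 21.3% and 24.3% of all rows. Their median log2 ratios of shallow over deep run were −2.12 in WT IP D1 (−1.69 with runs at 0 taken at 3 counts) and −1.30 in WT input RIP8, where the members had medians of 0.58 and −0.06. Among other splicing regulators, 11 of 23 were higher and 5 lower, with medians of 1.33 and 0.72. Of 9 SR-related proteins 4 were higher and 2 lower, and of 7 SR protein kinases and importers 2 were higher and 1 lower. In the pair of deep KO IP D1 runs the core factors had a median of −0.07 and the other regulators one of −0.19. No test of a difference between these lists and the members was made.

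Among 7021 named rows with at least 200 counts, 4 genes had CPM in the same order as Hnrnpa2b1 over the 9 runs (Spearman's rho of 1): Tardbp, Pcm1, Klhl26 and Myo9a. Tardbp, the gene of the RNA-binding protein TDP-43, ran from 201 to 1935 CPM. The genes in the same order as Srsf1 were Mgat4a, Mapkbp1 and Nfx1, of which Mgat4a ran from 33.8 to 466 CPM. Among the members themselves, Hnrnpr and Hnrnph3 had a rho of 0.933 to Hnrnpa2b1, and Tra2a had one of 0.983 to Srsf1, followed by Srsf10 and Hnrnpdl with 0.95. Hnrnpf had −0.833 to Hnrnpa2b1, and Hnrnpc and Hnrnpm had −0.867 to Srsf1. The 9 points share libraries, depth and the Lars2 share, so these values describe likeness over these runs only.

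For the comparisons between labelled groups, the runs of each library were summed and edgeR's quasi-likelihood test was run on all 11496 rows that passed its filter on low counts, with Benjamini-Hochberg adjustment over them. All 33 members were tested. With 1 library per IP group, the 2 residual degrees of freedom came from the input libraries alone, and the IP libraries were taken to have the same spread. At an adjusted p of 0.05 it called 0 members and 0 rows (0% of rows) in each of the 4 comparisons. The common dispersion, edgeR's measure of the spread, was 0.281 in this fit. It was 0.0752 without WT input D1 and 0.0792 without WT input RIP8, against 0.380 and 0.381 without either KO input. The WT inputs, a shallow and a mostly deep library, thus set much of the spread, and the 0 calls do not show that differences were absent. All comparisons share libraries, so their values stand side by side and are not independent.

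In KO input against WT input, no member passed the test. The members' median log2 fold change was −0.16, with 15 above and 18 below 0, against a median of −0.10 over all rows. The Hnrnp genes had a median of −0.44 and the Srsf genes one of −0.15. Among the Hnrnp genes the smallest p belonged to Hnrnpll, the regulator of CD45 splicing, at −2.02 ± 1.10 (edgeR, adjusted p = 0.996), on 3 and 123 counts in the WT inputs and 1 and 2 in the KO inputs. Among the Srsf and Tra2 genes it belonged to Srsf10, at 0.67 ± 0.68 (edgeR, adjusted p = 0.996), on 213 and 91.7 CPM in WT input D1 and RIP8 and 190 and 287 CPM in the KO inputs. Unadjusted, 600 rows and 0 members had p under 0.05. DESeq2 called 28 rows, all lower in KO input, with 425 unadjusted, and limma voom called 0, with 510 unadjusted. Without the library WT input D1, so that WT input was the library with a deep run alone, 7 of 33 members (21.2%) were called by edgeR, near the 20.2% of all rows called in that fit: Hnrnpr rose by 1.63 ± 0.56 (edgeR, adjusted p = 0.024), and Hnrnpa0, Hnrnpab, Hnrnpc, Hnrnpf, Hnrnph2 and Hnrnpl fell. Hnrnpa0 fell furthest, by 2.15 ± 0.53 (edgeR, adjusted p = 0.00078). With 1 WT input library left, the spread in that fit came from the 2 KO inputs alone, both shallow, and WT input was assumed to vary like them. Without WT input RIP8, which left only shallow input libraries, edgeR called 0 members and 0 rows, with 159 rows under 0.05 unadjusted.

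In WT IP against WT input, which asks what the antibody enriched, again no member passed. Of the members 8 lay above and 25 below 0, with a median of −0.55 against −0.10 over all rows. Without TMM scaling the median of all rows was −0.61, a shift of over 0.1, so these values hold relative to the bulk of rows. The Hnrnp median was −0.66 and the Srsf median −0.54. Hnrnpa3 had the smallest p of the Hnrnp genes, with 17.6 CPM in WT IP D1 against 135 and 68.1 CPM in the WT inputs, at −1.92 ± 0.86 (edgeR, adjusted p = 0.637). It was the only member with an unadjusted p under 0.05, among 878 rows. Srsf1 had the smallest p of the Srsf and Tra2 genes, with 288 CPM against 2097 and 829 CPM, at −1.76 ± 1.06 (edgeR, adjusted p = 0.661). DESeq2 called 28 rows, all higher in IP, with 733 unadjusted, and limma voom called 0, with 1411 unadjusted.

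The calls in that comparison depended on which runs stood for the libraries. With batch 2 runs alone, the shallow run stood for WT IP D1, and the values turned to 0.51 for Hnrnpa3 and 0.70 for Srsf1. With the other run of each library, which sets a deep IP run against shallow inputs, 15 of 31 members tested (48.4%) were called by edgeR, near the 47.6% of all rows, with 5 higher in IP (Hnrnpab, Hnrnpc, Hnrnpf, Hnrnpk and Hnrnpm) and 10 lower (Hnrnpa1, Hnrnpa2b1, Hnrnpa3, Hnrnpd, Hnrnph3, Hnrnpr, Hnrnpul2, Srsf1, Srsf10 and Tra2a). Srsf1 then fell by 2.99 ± 0.44 (edgeR, adjusted p = 0.000436). Without WT input RIP8, 10 of 31 members tested (32.3%) were called by edgeR, near the 34.5% of all rows, with Hnrnpc, Hnrnpf and Hnrnpk higher and Hnrnpa2b1, Hnrnpa3, Hnrnph3, Hnrnpr, Srsf1, Srsf6 and Srsf10 lower. Without WT input D1, 2 of 33 (6.06%) were called, below the 9.14% of all rows. These were Hnrnpd and Hnrnpl, both lower in IP, the former at −1.88 ± 0.61 (edgeR, adjusted p = 0.0297). The other runs and the fit without WT input RIP8 set a deep IP against shallow inputs, so depth and label cannot be told apart in them, while without WT input D1 both libraries were deep but came from different experiments, D1 and RIP8, so experiment and label cannot be told apart. In the last 2 fits the spread again came from the KO inputs alone.

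In WT IP against KO IP, with 1 library each, the members' median was −0.45 against −0.01 over all rows, with 10 above and 23 below 0. Hnrnpul2, an hnRNP U-like protein, had 73.0 CPM in WT IP and 206 CPM in KO IP, at −1.17 ± 0.92 (edgeR, adjusted p = 1.00). Srsf4, an SR protein, had 69.2 and 160 CPM, at −0.89 ± 0.95 (edgeR, adjusted p = 1.00). Unadjusted, 33 rows and 0 members had p under 0.05. DESeq2 and limma voom called 0 rows, with 31 and 193 unadjusted. Batch 2 runs alone gave 0.58 for Hnrnpul2, the opposite sign.

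In the comparison of WT IP over input with KO IP over input, which asks whether enrichment depends on CPEB4, the members' median was −0.56 against −0.27 over all rows, with 10 above and 23 below 0. Hnrnpa0 was at −2.30 ± 1.36 (edgeR, adjusted p = 1.00) and Srsf4 at −1.12 ± 1.17 (edgeR, adjusted p = 1.00). The level of Hnrnpa0 was 242 CPM in WT IP and 542 CPM in KO IP, 161 and 579 CPM in the WT inputs and 190 and 112 CPM in the KO inputs. Unadjusted, 124 rows and 0 members had p under 0.05, while DESeq2 and limma voom called 0 rows, with 52 and 240 unadjusted. Leaving out WT input D1 left the RIP8 library, mostly a deep run, as the only WT input. It stood beside shallow KO inputs and IP libraries of D1, so depth, experiment and label cannot be told apart in that fit. Its spread came from the KO inputs alone, so its calls do not show whether enrichment depends on CPEB4. Without WT input D1, edgeR called 3 of 33 members (9.09%), near the 10.2% of all rows, each lower: Hnrnpa0 at −2.99 ± 0.81 (edgeR, adjusted p = 0.00648), Hnrnph2 and Hnrnpl.

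**Figure D4:**
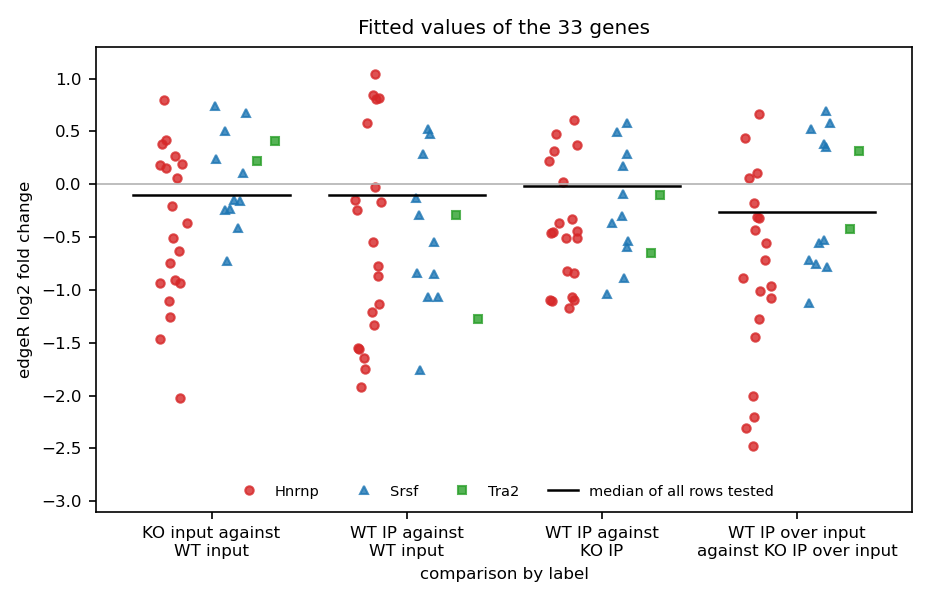
Log2 fold change from the edgeR fit (vertical axis) of each of the 33 genes in the 4 comparisons by label (horizontal axis), with points shifted sideways by family and a black line at the median of all 11496 rows tested. None of the points passed an adjusted p of 0.05. In the 3 comparisons with an IP, 23 to 25 of the 33 genes lay below 0. Of all 11496 rows, 6059, 5845 and 6724 lay below 0 in these comparisons, from left to right. All 3 use the same WT IP library, so they are not separate observations.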

How the data were processed

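The table deposited by the authors holds raw counts of reads per 3′ UTR, 1 column per run. Per the submitters' processing notes, featureCounts, R 3.5.1, Bowtie 1.2.3, Bowtie2 2.2.2 and the build mm10 were used, without their roles. For strand and annotation, nothing is given in the sources used here.

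Rows carry a transcript and a UTR start. They were placed on RefSeq genes of GRCm38 by position and row order, which named 17034 of 20586 rows, 1014 of them from within 1000 bases outside a gene. Neighbouring rows with a shared start held identical counts in 25 of 49 cases in the first 9 columns and in 0 of 60 in the last 11, whose values were therefore not used. All columns matched a sample.

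CPM exclude the Lars2 row. Runs of a library were summed and tested with edgeR 4.0.16 in R 4.3.3 (TMM, filterByExpr at a minimum count of 10, group means model without covariates). SE is the fitted log2 change divided by the root of the F statistic and so restates the test. DESeq2 1.42.0, limma 3.58.1 voom, no TMM factors, no filter, the Lars2 row kept, batch 2 runs alone, the other run of each library, a replicate block and leaving out each library were alternatives. The fit was also run on simulated counts whose spread was set below that of these data. That run cannot show which changes the fit would miss here. Total counts per run were 364113 to 4182830.

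Levels in all 9 runs were given for the 8 Hnrnp and the 8 Srsf or Tra2 genes with the most counts. Fitted values were given for the Hnrnp and the Srsf or Tra2 gene with the smallest p. The most alike genes were those with the highest Spearman correlation. The members, the gene lists and the tests were chosen with earlier results of these data known. Protein and UTR sequences were not used here.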

Additional observations from a re-analysis of the deposited data

How the results depend on the processing

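Under the alternatives to edgeR's 0 calls, KO input against WT input had 28 rows lower with DESeq2, 84 lower without a filter and 2 lower with the replicate block, and between 0 and 915 rows higher and 0 and 1428 lower on leaving out a library (members 0 to 1 and 0 to 6). WT IP against WT input had 28 higher with DESeq2, 93 higher and 1 lower without a filter, 478 higher and 58 lower with the replicate block, 2113 higher and 1661 lower with the other run of each library (members 5 and 10), and 0 to 1541 higher and 0 to 1098 lower on leaving out a library (members 0 to 3 and 0 to 7). Using the other run of each library, WT IP against KO IP had 350 higher and 187 lower, with 0 to 16 and 0 to 7 on leaving out a library. The comparison of IP over input between genotypes had 0 to 466 higher and 0 to 720 lower (members 0 and 0 to 3). The sign turned for Srsf10 in KO input against WT input with the other runs (−0.15), and with batch 2 runs alone for Hnrnpa3 (0.51) and Srsf1 (0.70) in WT IP against WT input and for Hnrnpul2 in WT IP against KO IP (0.58). The cause was not tested.

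The replicate number is shared by both input groups, and the D1 deviations of WT and KO input correlated at 0.193 over 11496 rows. With 2 pairs and no label that ties a number to an animal, the samples share only a number. The replicate block called 0 members in all 4 comparisons.

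The Hnrnp share moved with its definition, here in the order WT input D1, KO input D1, WT IP D1, KO IP D1, WT input RIP8 and KO input RIP8. Without the member with the most counts it was 46.3, 45.8, 64.1, 66.6, 65.0 and 47.0%, and with Tra2a and Tra2b among the Srsf genes 57.0, 56.2, 66.2, 69.1, 68.1 and 55.8%. At equal weight per gene, the median log2 CPM of Hnrnp minus Srsf was −0.33, −0.29, 0.15, 0.39, 0.13 and −0.40. Batch 2 runs alone gave 58.9% for WT IP D1, 70.9% for KO IP D1 and 72.3% for WT input RIP8. Without Hnrnpa2b1 and Srsf1, chosen after seeing the data, WT IP D1 had 67.2%, KO IP D1 70.8% and KO input RIP8 63.0%. The difference of KO from WT input ranged from −12.4 to −0.429 points on leaving out a library. With the Lars2 row kept, 5 of 32 members were higher and 10 lower in every shallow run, against 9.15% and 41.6% of all rows. The added settings for these counts, which drop like or doubted runs, gave 11 to 13 higher and 6 to 7 lower. The shares of all rows moved too, to 22.1 to 29.5% higher and 29.2 to 32.7% lower. The share over members whose UTR starts at a gene boundary was not run, because no Srsf row did so. Shallow depth limits the scarce members: 1 count stood for 3.15 to 5.20 CPM there, and Srsf12 had 82 counts over the 9 runs.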
